A study of Homo sapiens with 6 samples.

Results

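The ADAM and ADAMTS families were followed in U251 cells, a long-established line of human glioma, grown on nanofibers of the polyester poly-caprolactone. All probe sets whose annotation named a single gene starting with ADAM and a digit, or with ADAMTS, were taken, with no filter on brightness. They were 118 of 41091 probe sets with 1 gene symbol, and they stood for 50 of 19775 genes. Each gene was represented by its probe set with the highest mean over the 6 arrays. In 3 cultures the electrospun fibers ran parallel (aligned), and in 3 they had no common direction (random), the cultures being independent per the series' design. Cells of both groups grew for 24 h without other treatment in medium with 10% fetal bovine serum, and total RNA of each culture was read on 1 Affymetrix HG-U133 Plus 2 array. The comparison asks how expression differs with fiber alignment. A single cell line was used, so the values describe these cultures of U251 only. A value comes from the pooled RNA of a culture, so fewer cells with a transcript and less transcript per cell cannot be told apart.

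ADAM proteins are membrane-anchored members of the metzincin metalloproteinases. Many of them cut the outer part of other membrane proteins, a step called shedding, which releases growth factors and starts the processing of Notch and other receptors. ADAMTS proteins are their secreted relatives, which carry thrombospondin repeats and cut matrix proteins such as versican, aggrecan and procollagens. ADAMTS-like proteins share those repeats but have no protease domain. In brain and glioma the large proteoglycans of the matrix are known substrates of ADAMTS enzymes, and ADAM10 and ADAM17 are the best known sheddases.

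The values are log2 units, so a difference of 1 is a doubling. A probe set was called above the median of its array when it lay above the middle of all non-control probe sets there, which was between 5.63 and 5.66 on the 6 arrays. By this measure 21 of the 50 genes were above the median on all 6 arrays, 26 on none and 3 on some. Of all 19775 genes, 11735 were above it on all 6 arrays, 6946 on none and 1094 on some. The median was taken over all probe sets, while each gene was read by its brightest one. The symbols included 4 pseudogenes and 5 long noncoding transcripts, which encode no protease. No comparison of level between genes was made, since probe sets differ in how brightly they bind.

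The array of aligned replicate 3 stood apart. Its root mean square distance from the mean of the random arrays was 0.44 over the 50 genes, against 0.25 for aligned 2, 0.20 for aligned 1 and 0.11 to 0.14 for the random arrays. The random arrays are part of that mean, which by itself brings them closer to it than aligned arrays. Over all genes, 53.7% of the variance fell on the first principal component, where aligned 3 scored 34.8 and no other array was outside the range from -14.3 to 6.78. Signal of 18S ribosomal RNA was 8.53, 9.05 and 9.78 on aligned 1, 2 and 3 and 8.40, 9.14 and 8.78 on random 1, 2 and 3, so aligned 3 was also the highest array there. Of 9 genes known from glioma lines, VIM, NES, SOX2, SOX9, CD44 and FABP7 were above the median on every array, GFAP on 3 arrays, S100B on 2 and CHI3L1 on none. Their mean level ranged from 9.19 to 9.84 on aligned and from 9.90 to 10.1 on random arrays. Of the 9, 8 had a negative difference, as did 8304 of all 19775 genes, and CHI3L1 had a positive one. S100B, SOX9 and SOX2 differed by -1.13, -0.53 and -0.44 with groups that did not overlap. Every aligned array lay below every random array in 6.88% of all genes. FABP7 and GFAP differed by -0.90 and -0.81 with groups that overlapped. Of 5 leukocyte genes, PTPRC, CD14 and CSF1R were below the median on every array, CD3E was above it on 6 and AIF1 on 5. Of 5 epithelial genes, EPCAM, CDH1 and KRT19 were below it on every array, KRT8 was above it on 6 and CLDN4 on 1. Of 4 endothelial genes, CDH5 and TEK were below it on every array, PECAM1 was above it on 6 and KDR on 3. Of 4 neuron genes, SYT1 and SNAP25 were above it on 6 arrays, RBFOX3 on 3 and STMN2 on none. The 4 neuron genes had a mean level of 5.89 to 5.99 on aligned and 5.67 to 5.80 on random arrays, and the 5 leukocyte genes 5.17 on all aligned and 4.98 to 5.13 on random arrays. The neuron gene SYT1 differed by 0.56 and the epithelial gene CLDN4 by 0.28. The part of these lists and of the distant array in the differences below was not tested, other than by leaving aligned 3 out.

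No ADAM or ADAMTS gene passed the test over all genes. In limma 0 of 19775 genes (0%) had a Benjamini-Hochberg adjusted p under 0.05, and the lowest adjusted p among the 50 genes, 0.504, was also the lowest over all genes. At an unadjusted p under 0.05 in limma there were 9 of the 50 genes, or 18%, against 9.4% of all genes. Of these, 6 were higher on aligned fibers (4.9% of all genes) and 3 were lower (4.5% of all genes). ADAMTS6, ADAMTS17, ADAMTS14, ADAM30, ADAMTS5 and ADAMTS13 were the 6, and ADAMTS15, ADAMTS16 and ADAM19 were the 3. The lowest aligned array exceeded the highest random array in 7 of the 50 genes, where 9.08% of all genes did so, and the reverse held in 4, where it held for 6.88%. The median log2 difference, aligned minus random, was 0.03 over the 50 genes and 0.03 over all genes. The difference was positive in 31 of the 50 genes (62%) and in 58.0% of all genes.

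The count of 9 depended on single arrays. Leaving out aligned 1, 2 or 3 gave 11, 9 or 6 genes, and leaving out random 1, 2 or 3 gave 5, 7 or 3. The share of all genes moved as well, to 15.3%, 7.93%, 5.79%, 8.60%, 6.99% and 5.27% in the same order. Without random 3 the members' share of 6% was thus near that of all genes. For the 50 genes the standard error of the log2 difference had a median of 0.09, and the number of arrays limits what could be called.

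**Figure D1:**
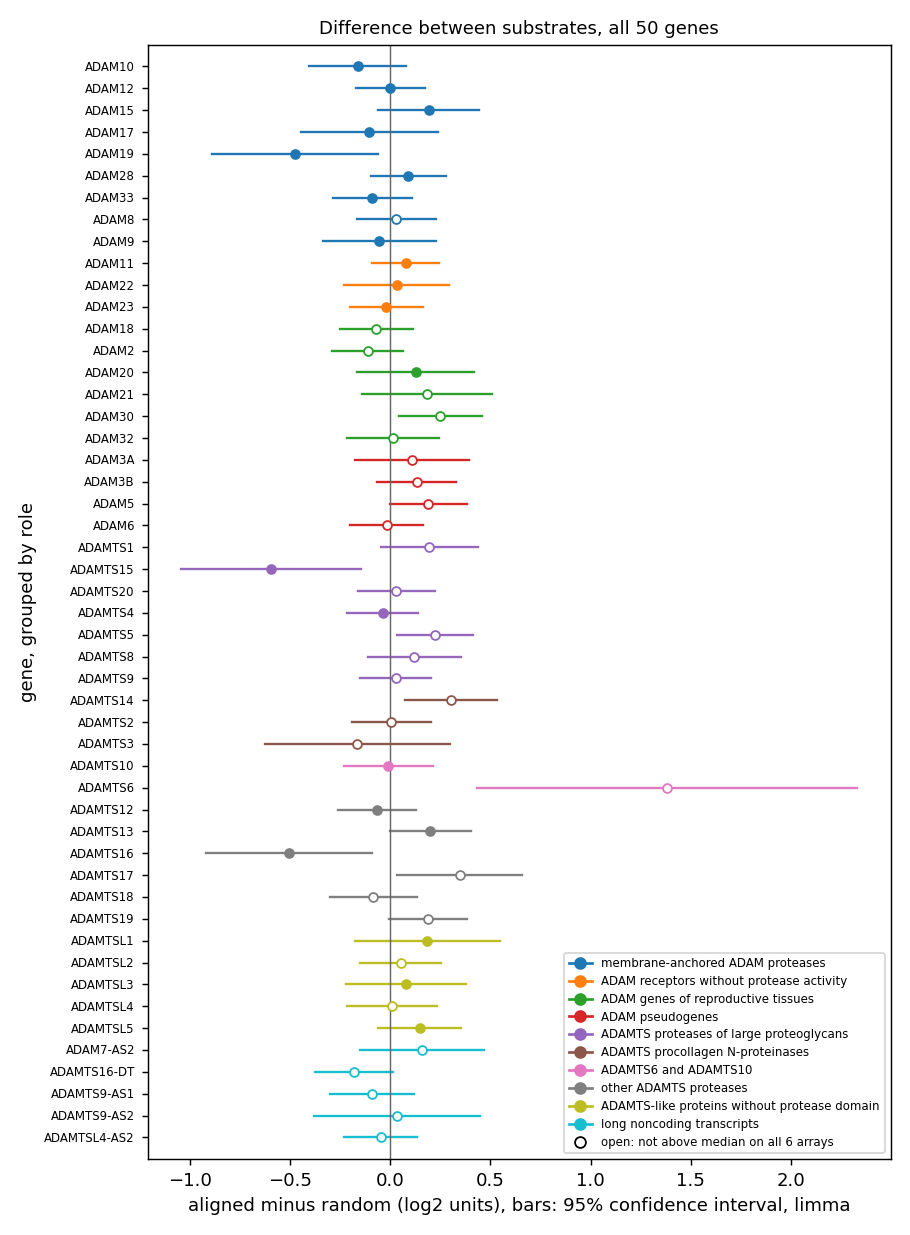
Log2 difference, aligned minus random, of all 50 genes, with 95% confidence intervals from limma, coloured by role; filled points are genes above the array median on all 6 arrays. Most intervals cross 0, ADAMTS6 lies farthest to the right at 1.38 and ADAMTS15 farthest to the left at -0.59.

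RefSeq promoter windows, from 250 bases before to 50 bases after the annotated start (GRCh38.p14), were on hand for 29 of the 50 genes, as 30 windows. The 30 windows had a median GC content of 70.8% and a median of 28.5 CpG pairs, against 58.7% and 14 over all 35116 windows. The letters GGGCGG, known as a GC box, stood in 21 of the 30 windows (70%) and in 45% of all windows, counting both strands. ADAMTS6 and ADAM19 are shown because they were among the genes that lay higher and lower, respectively, on aligned fibers. The bases before the start are given 5′ to 3′ on the minus strand of chromosome 5. Capitals mark matches to GGAATG, the motif bound by TEAD factors, and to ACGTG, the core of the hypoxia response element. The AP-1 motif TGANTCA was also searched. So were the TATA box, spelled TATAAA, and the cyclic AMP response element, spelled TGACGTCA. Both strands were always read.

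ADAMTS6, chr5:65481921-65482170, minus strand: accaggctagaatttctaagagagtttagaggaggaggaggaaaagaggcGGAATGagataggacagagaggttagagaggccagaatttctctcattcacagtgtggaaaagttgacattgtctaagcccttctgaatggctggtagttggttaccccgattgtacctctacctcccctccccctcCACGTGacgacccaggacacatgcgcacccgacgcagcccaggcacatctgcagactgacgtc

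ADAM19, chr5:157575776-157576025, minus strand: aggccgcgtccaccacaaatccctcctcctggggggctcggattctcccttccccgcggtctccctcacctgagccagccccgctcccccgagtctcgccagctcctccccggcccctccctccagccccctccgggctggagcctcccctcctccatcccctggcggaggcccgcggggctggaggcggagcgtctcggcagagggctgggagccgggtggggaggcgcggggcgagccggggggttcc

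The ADAMTS6 stretch had a GC content of 52.4% and 8 CpG pairs, and the ADAM19 stretch 76.4% and 21. GGAATG began 200 bases before the ADAMTS6 start, and ACGTG was read on both strands in overlapping letters that began 63 and 62 bases before it. TGACGTCA began 7 bases before the ADAMTS6 start and ran across it, so it is not in capitals. No searched motif was found in the ADAM19 window. The TEAD motif was in 14% of all windows and in 5 of the 30. The hypoxia core was in 21.4% and in 9, and the cyclic AMP element in 1.85% and in 1. The AP-1 motif was in 7.71% and in 1, and the TATA box in 11.5% and in 4. A match of letters describes the sequence and says nothing of binding in these cells.

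ADAMTS6 had the largest difference of the 50 genes. It encodes a secreted protease closely related to ADAMTS10, and both have been linked to fibrillin microfibrils. ADAMTS6 read 6.41, 7.27 and 8.09 on aligned 1, 2 and 3 and 6.35, 6.04 and 5.24 on random 1, 2 and 3. All aligned arrays lay above all random arrays, but aligned 1 and random 1 were nearly equal, and the distance came from aligned 2, aligned 3 and random 3. The means were 7.26 ± 0.84 and 5.88 ± 0.57 (SD, n = 3 each). Aligned minus random was 1.38 ± 0.41 (SE), or 2.61-fold. The 95% confidence interval was 0.43 to 2.33, with an unadjusted p of 0.00965 and an adjusted p of 0.504 in limma. Without aligned 3 the difference was 0.97, without random 3 it was 1.06, and without aligned 1 it was 1.80. The gene has 3 probe sets, and in the fit over probe sets their differences were 1.38, 0.82 and 0.68, and limma gave each of them an unadjusted p under 0.05. The second probe set was below the array median on every array and the third on 5 of 6, and on the third aligned 1 at 4.57 lay within the random values of 4.12 to 4.81.

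ADAMTS10, the close relative, showed no such distance. It read 6.14, 6.29 and 6.10 on aligned 1, 2 and 3 and 6.30, 6.04 and 6.22 on random 1, 2 and 3, so the groups overlapped. Its log2 difference was -0.01 ± 0.10 (SE), with a 95% confidence interval of -0.23 to 0.21. The second ADAMTS10 probe set read 4.76 to 5.01, below the median on every array, and differed by 0.04. The difference between ADAMTS6 and ADAMTS10 in response was not tested.

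**Figure D2:**
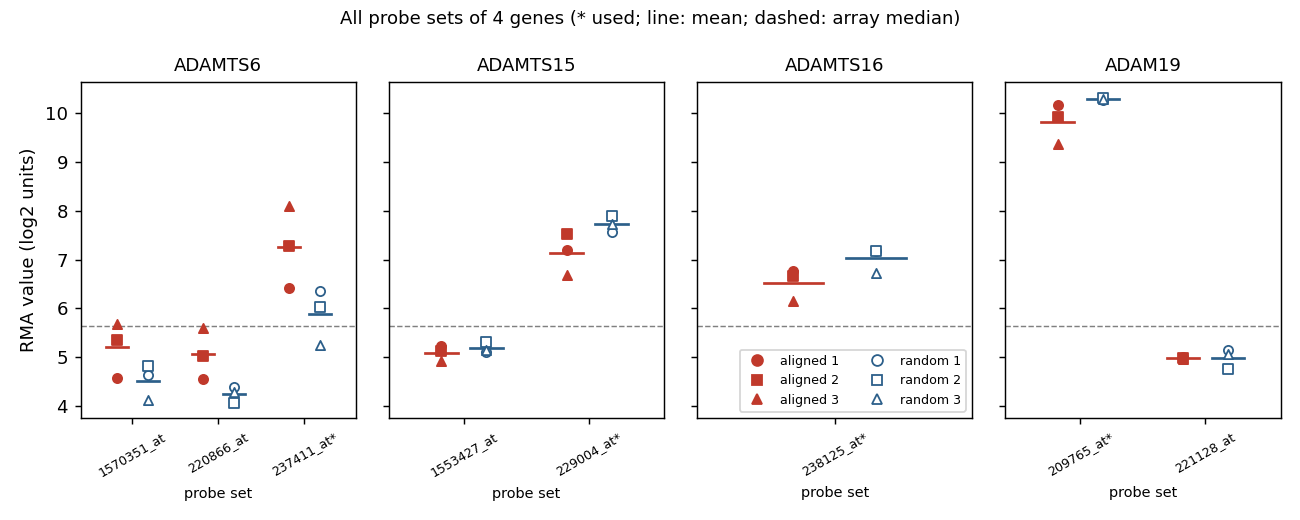
RMA values in log2 units of every probe set of ADAMTS6, ADAMTS15, ADAMTS16 and ADAM19; filled red symbols are aligned arrays, open blue symbols random arrays, short lines group means, the dashed line the mean array median, and a star the probe set used. The 3 ADAMTS6 probe sets differ in the same direction, while the dim probe sets of ADAMTS15 and ADAM19 show groups that overlap.

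Among the proteoglycanases, which cut versican, aggrecan and related core proteins, ADAMTS15 lay lower on aligned fibers. ADAMTS15 read 7.19, 7.53 and 6.70 on aligned 1, 2 and 3 and 7.56, 7.91 and 7.74 on random 1, 2 and 3. Every aligned array was below every random array, although aligned 2 and random 1 were nearly equal. The means were 7.14 ± 0.42 and 7.74 ± 0.17 (SD, n = 3 each). Aligned minus random was -0.59 ± 0.20 (SE), so random cultures were 1.51-fold higher. The unadjusted p was 0.0156 and the adjusted p 0.504 in limma. Without aligned 3 the difference was -0.37, and without random 2 it was -0.51. Its other probe set was below the median on all arrays and differed by -0.09.

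ADAMTS4, an aggrecanase, was the other proteoglycanase above the median on all 6 arrays. It read 5.98, 6.01 and 5.98 on aligned 1, 2 and 3 and 5.99, 6.12 and 5.97 on random 1, 2 and 3, with a log2 difference of -0.04 ± 0.08 (SE). ADAMTS1, ADAMTS5, ADAMTS8, ADAMTS9 and ADAMTS20 were below the median on every array, with differences from 0.03 to 0.22. ADAMTS5, the second classical aggrecanase, had the 0.22 ± 0.08 (SE), with 3.14, 3.16 and 3.31 on aligned and 3.01, 3.01 and 2.93 on random 1, 2 and 3. The groups did not overlap, but the values lay far below the array median, and the 4 probe sets of ADAMTS5 differed by -0.05 to 0.22.

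ADAMTS16 was the third gene that lay lower on aligned fibers together with ADAMTS15 and ADAM19. It encodes a secreted protease studied for its role in kidney and blood pressure. ADAMTS16 read 6.77, 6.66 and 6.15 on aligned 1, 2 and 3 and 7.17, 7.18 and 6.74 on random 1, 2 and 3. The groups overlapped narrowly, since aligned 1 lay above random 3, and both arrays numbered 3 were the lowest of their group. The log2 difference was -0.50 ± 0.18 (SE), with an unadjusted p of 0.0225 and an adjusted p of 0.508 in limma. It was -0.32 without aligned 3 and -0.65 without random 3. ADAMTS16 had a single probe set, so no other reading of it was at hand. ADAMTS16-DT, the noncoding transcript named as divergent from it, was below the median on every array. It read 4.34, 4.32 and 4.34 on aligned and 4.51, 4.40 and 4.63 on random 1, 2 and 3, a log2 difference of -0.18 ± 0.08 (SE), and its groups did not overlap.

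The other secreted ADAMTS enzymes were ADAMTS12, ADAMTS13, ADAMTS17, ADAMTS18 and ADAMTS19. ADAMTS12, which cuts cartilage oligomeric matrix protein, read 7.31, 7.15 and 7.09 on aligned 1, 2 and 3 and 7.27, 7.25 and 7.23 on random 1, 2 and 3. The groups overlapped, with a log2 difference of -0.07 ± 0.08 (SE). ADAMTS13, the protease of von Willebrand factor, read 6.30, 6.41 and 6.19 on aligned 1, 2 and 3 and 6.15, 6.13 and 6.02 on random 1, 2 and 3. Its aligned arrays lay above the random arrays by little, with a log2 difference of 0.20 ± 0.09 (SE) and an adjusted p of 0.530 in limma. The second ADAMTS13 probe set was below the median and differed by 0.01. ADAMTS17, ADAMTS18 and ADAMTS19 were below the median on every array. ADAMTS17 read 4.40, 4.34 and 4.53 on aligned and 4.01, 4.37 and 3.84 on random 1, 2 and 3, so random 2 lay within the aligned values. Its log2 difference was 0.35 ± 0.14 (SE), but its 3 probe sets differed by -0.01 to 0.35.

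The procollagen N-proteinases, which trim the amino end of fibrillar procollagens, are ADAMTS2, ADAMTS3 and ADAMTS14. ADAMTS14 read 5.65, 5.56 and 5.77 on aligned 1, 2 and 3 and 5.52, 5.26 and 5.29 on random 1, 2 and 3. Its groups did not overlap, while 1 of the 6 arrays, aligned 3, lay above the array median. The log2 difference was 0.30 ± 0.10 (SE), with an unadjusted p of 0.0164 and an adjusted p of 0.504 in limma. It was 0.25 without aligned 3. ADAMTS2 and ADAMTS3 were below the median on all arrays, with differences of 0.01 and -0.16 and groups that overlapped.

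**Figure D3:**
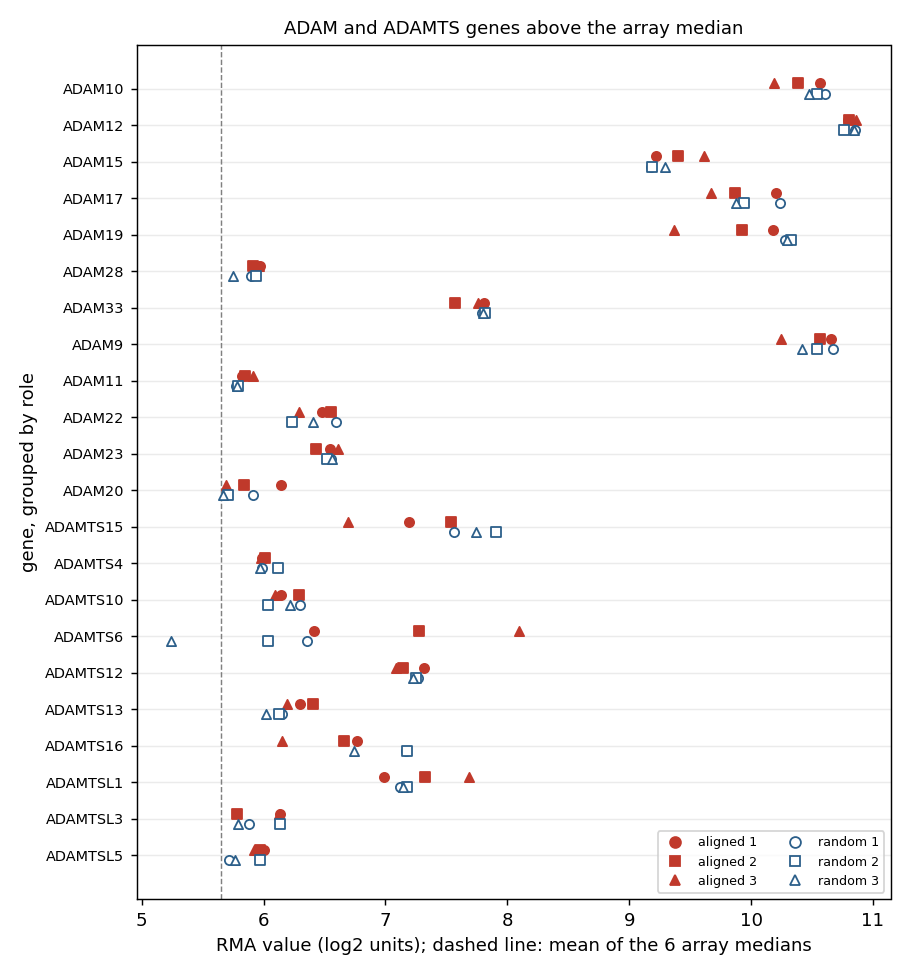
RMA values in log2 units on each of the 6 arrays for the 21 genes above the array median on all of them and for ADAMTS6, which was above it on 5; filled red symbols are aligned and open blue symbols random arrays, and the dashed line is the mean array median. The groups lie apart for ADAMTS6, ADAMTS15, ADAM19, ADAMTS13 and ADAM11, and overlap for the other genes shown.

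Of the 9 membrane-anchored proteases outside the testis group, 8 were above the median on all 6 arrays, and the median of the 9 differences was -0.05. ADAM10, the sheddase of Notch, cadherins and the amyloid precursor protein, read 10.56, 10.39 and 10.19 on aligned 1, 2 and 3 and 10.61, 10.54 and 10.47 on random 1, 2 and 3. Aligned 3 and aligned 2 were the lowest arrays, while aligned 1 lay among the random values. The log2 difference was -0.16 ± 0.11 (SE), with a 95% confidence interval of -0.40 to 0.08, and all 3 probe sets had differences between -0.16 and -0.14. ADAM17, which releases tumour necrosis factor and ligands of the EGF receptor, read 10.20, 9.87 and 9.67 on aligned 1, 2 and 3 and 10.23, 9.94 and 9.88 on random 1, 2 and 3. Its groups overlapped, with a log2 difference of -0.10 ± 0.15 (SE) and a 95% confidence interval of -0.45 to 0.24. Differences within these intervals could not be resolved with 3 arrays per group.

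ADAM19, also called meltrin beta and known as a sheddase of neuregulin, was the one sheddase with an unadjusted p under 0.05. It read 10.18, 9.93 and 9.37 on aligned 1, 2 and 3 and 10.28, 10.33 and 10.29 on random 1, 2 and 3. The random arrays were almost equal, with an SD of 0.02, and the aligned arrays spread below them with an SD of 0.41. The log2 difference was -0.47 ± 0.18 (SE), or 1.39-fold, with an unadjusted p of 0.0295 and an adjusted p of 0.526 in limma. It was -0.25 without aligned 3, which read lowest, and -0.65 without aligned 1. The second ADAM19 probe set was below the median on all arrays and differed by -0.003.

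ADAM9 and ADAM12 showed no distance between the substrates beyond their spread. ADAM9, a widely expressed sheddase, read 10.66, 10.57 and 10.25 on aligned 1, 2 and 3 and 10.68, 10.54 and 10.42 on random 1, 2 and 3. ADAM12, or meltrin alpha, read 10.80, 10.80 and 10.86 on aligned 1, 2 and 3 and 10.85, 10.76 and 10.85 on random 1, 2 and 3. The ADAM12 difference was 0.001 ± 0.07 (SE), with a 95% confidence interval of -0.17 to 0.17, and its 5 probe sets differed by -0.08 to 0.22. ADAM15, whose disintegrin domain carries an integrin-binding site, read 9.22, 9.40 and 9.62 on aligned 1, 2 and 3 and 9.18, 9.18 and 9.30 on random 1, 2 and 3. Aligned 2 and aligned 3 lay above all random arrays and aligned 1 did not, and the log2 difference was 0.19 ± 0.11 (SE).

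ADAM33 and ADAM28 completed the membrane-anchored proteases above the median. ADAM33, a gene studied in asthma, read 7.81, 7.57 and 7.76 on aligned 1, 2 and 3 and 7.79, 7.82 and 7.80 on random 1, 2 and 3, with a log2 difference of -0.09 ± 0.09 (SE). The second ADAM33 probe set read 3.36 to 3.66, below the median on every array, and differed by 0.08, opposite in sign. The ADAM28 values were 5.97, 5.91 and 5.96 on aligned 1, 2 and 3 and 5.90, 5.93 and 5.75 on random 1, 2 and 3, just above the array medians. The other 3 probe sets of ADAM28 were below the median and had differences from -0.22 to -0.05, opposite in sign to the 0.09 of the one used. ADAM8, a protease best known from leukocytes, was below the median on all arrays and differed by 0.03 ± 0.09 (SE).

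ADAM11, ADAM22 and ADAM23 lack protease activity and act as receptors for LGI proteins at neuronal contacts. By the probe set used, all 3 were above the array median on all 6 arrays. This held for 1 of the 2 probe sets of ADAM11, 5 of the 8 of ADAM22 and 1 of the 4 of ADAM23. ADAM11 read 5.82, 5.84 and 5.91 on aligned 1, 2 and 3 and 5.77, 5.79 and 5.78 on random 1, 2 and 3. The groups did not overlap, but the log2 difference of 0.08 ± 0.07 (SE) was small and had an adjusted p of 0.720 in limma. ADAM22 read 6.48, 6.55 and 6.29 on aligned 1, 2 and 3 and 6.59, 6.23 and 6.41 on random 1, 2 and 3, and its 8 probe sets differed by -0.16 to 0.06. ADAM23 read 6.55, 6.43 and 6.61 on aligned 1, 2 and 3 and 6.55, 6.52 and 6.56 on random 1, 2 and 3. Both of the latter overlapped between the groups, with differences of 0.03 and -0.02.

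The ADAM genes best known from testis and sperm were ADAM2, ADAM18, ADAM20, ADAM21, ADAM30 and ADAM32, and 5 of these 6 were below the median on every array. ADAM20 was above it, with 6.14, 5.84 and 5.69 on aligned 1, 2 and 3 and 5.91, 5.71 and 5.67 on random 1, 2 and 3. Its log2 difference was 0.13 ± 0.13 (SE), and its second probe set was below the median on all arrays. ADAM30 read 5.32, 5.05 and 5.15 on aligned and 4.93, 4.95 and 4.88 on random 1, 2 and 3, a log2 difference of 0.25 ± 0.09 (SE) with an adjusted p of 0.514 in limma. Its groups did not overlap, yet its second probe set differed by 0.03. ADAM2 was lower on every aligned array than on any random array, by a mean of only 0.11 and at values of 2.84 to 3.04.

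The pseudogenes ADAM3A, ADAM3B, ADAM5 and ADAM6 read between 3.12 and 4.90, below the median on all arrays. Their differences ran from -0.02 to 0.19, with ADAM5 at 0.19 ± 0.08 (SE) and groups that did not overlap. The noncoding transcripts ADAM7-AS2, ADAMTS9-AS1, ADAMTS9-AS2 and ADAMTSL4-AS2 differed by -0.09 to 0.16, all with groups that overlapped. ADAMTSL4-AS2 alone of these was near the median, above it on 5 of 6 arrays.

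ADAMTS-like proteins bind the microfibril network of the matrix without cutting it. All 5 had positive differences, from 0.01 to 0.19, where 58.0% of all genes had one. The groups overlapped in all 5. Of all genes, 9.08% had every aligned array above the random arrays and 6.88% below. ADAMTSL1 read 6.98, 7.33 and 7.69 on aligned 1, 2 and 3 and 7.12, 7.18 and 7.15 on random 1, 2 and 3. Aligned 2 and aligned 3 lay above the random arrays and aligned 1 below them, so the difference of 0.19 ± 0.16 (SE) was within the spread. All 6 ADAMTSL1 probe sets had positive differences, between 0.11 and 0.33. ADAMTSL3 read 6.14, 5.78 and 6.12 on aligned 1, 2 and 3 and 5.88, 6.14 and 5.79 on random 1, 2 and 3. ADAMTSL5 read 6.0, 5.97 and 5.92 on aligned 1, 2 and 3 and 5.72, 5.97 and 5.76 on random 1, 2 and 3. ADAMTSL2 and ADAMTSL4 were below the median on all arrays.

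**Figure D4:**
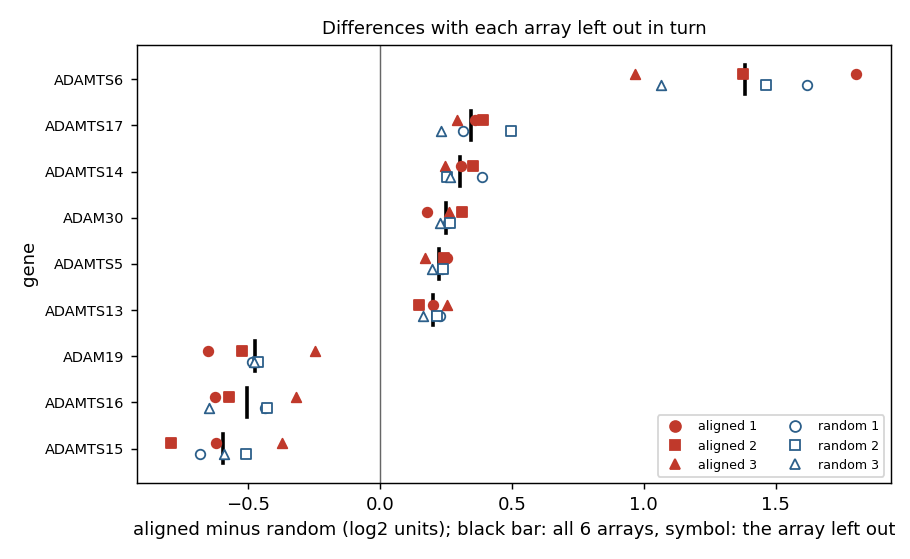
Log2 difference, aligned minus random, of the 9 genes with an unadjusted p under 0.05; the black bar uses all 6 arrays and each symbol shows the value when that array is left out. Every symbol stays on the same side of 0 as its bar, and omission of aligned 3 moves ADAM19 from -0.47 to -0.25 and ADAMTS6 from 1.38 to 0.97.

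Several probe sets were present for 37 genes, and in 23 of these 37 genes all probe sets differed in the same direction. When a gene's probe sets were averaged, 5 of the 50 genes (10%) had an unadjusted p under 0.05 in limma, near the 9.17% of all genes. ADAMTS6, ADAMTS14, ADAMTS15 and ADAMTS16 were the 4 shared with the 9, and ADAMTS16-DT was the fifth. ADAMTS6 stayed at an unadjusted p under 0.05 in all 13 alternatives that measured it, with differences from 0.96 to 1.80. ADAMTS15 did so in 12 of 13, ADAMTS14 in 10 of 12, ADAM19 in 10 of 14 and ADAMTS16 in 10 of 13. ADAMTS13 did so in 5 of 13 and ADAMTS17 in 6 of 12. The range of adjusted p over the alternatives was 0.114 to 0.826 for ADAMTS6 and 0.249 to 0.840 for ADAMTS15 in limma.

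Other genes of the pathways were taken from lists of regulators, substrates and partners, and 0 of their members passed over all genes in limma. The inhibitors had 10 measured genes, 6 with a positive difference, where 58.0% of all genes had one. PAPLN, the papilin gene, was the single one with an unadjusted p under 0.05 in limma, at 0.23 ± 0.09 (SE). Of all genes 9.4% had such a p. When probe sets that share sequence were left out, PAPLN was at 0.003. TIMP3, the tissue inhibitor that also blocks ADAM17 and aggrecanases, read 7.38, 7.38 and 7.71 on aligned 1, 2 and 3 and 7.35, 7.29 and 7.09 on random 1, 2 and 3. Its aligned arrays lay above its random arrays, with a log2 difference of 0.25 ± 0.12 (SE) and an adjusted p of 0.543 in limma. TIMP4 differed by 0.57 ± 0.36 (SE), and aligned 3 at 8.94 was far from the other 5 arrays at 7.29 to 7.60. TIMP1 and TIMP2 differed by 0.18 ± 0.11 and -0.08 ± 0.13 (SE).

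The enzymes and carriers that bring ADAM proteases to the surface were few. Of 4 proprotein convertases, which remove the inhibitory prodomain, PCSK6 differed by 0.25 ± 0.08 (SE) and FURIN by 0.08 ± 0.10, and PCSK6 was at 0.09 without the probe sets that share sequence. Of 5 ADAM17 partners, RHBDF2, an iRhom that carries ADAM17, read 6.67, 6.32 and 6.47 on aligned 1, 2 and 3 and 6.43, 5.99 and 6.04 on random 1, 2 and 3. Its groups overlapped, with a log2 difference of 0.33 ± 0.14 (SE). Of 6 tetraspanins that carry ADAM10, TSPAN5 read 8.96, 8.85 and 8.82 on aligned 1, 2 and 3 and 8.69, 8.41 and 8.33 on random 1, 2 and 3. All TSPAN5 values on aligned fibers were above those on random fibers, by 0.40 ± 0.11 (SE), with an unadjusted p of 0.00573 and an adjusted p of 0.504 in limma. The TSPAN5 difference was 0.43 without aligned 3. Of 5 measured genes of gamma-secretase, which cuts what shedding leaves in the membrane, PSEN2 differed by 0.19 ± 0.07 (SE). Both enzymes that glycosylate thrombospondin repeats, POFUT2 and B3GLCT, had groups that overlapped.

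Among 6 measured EGF family ligands that ADAM proteases release, 3 had an unadjusted p under 0.05, where 9.4% of all genes did. The 3 did not point one way. HBEGF, the heparin-binding ligand released by ADAM17 and ADAM12, read 8.52, 8.29 and 9.01 on aligned 1, 2 and 3 and 8.03, 7.76 and 7.18 on random 1, 2 and 3. All aligned arrays lay above all random arrays, by 0.95 ± 0.24 (SE), with an adjusted p of 0.504 in limma, and the average of its 4 probe sets gave 0.53. TGFA and EGF lay lower on aligned fibers, by -0.59 ± 0.20 and -0.60 ± 0.20 (SE), and were at -0.44 and -0.38 without aligned 3. Of 23 other membrane proteins cut by ADAM10 or ADAM17, 5 had an unadjusted p under 0.05, all higher on aligned fibers, where 9.4% of all genes had such a p and 4.9% were higher. A positive difference was seen in 13 of the 23, near the 58.0% of all genes. The receptor MET differed by 0.39 ± 0.10 (SE), the phosphatase PTPRF by 0.39 ± 0.14, the Notch ligand JAG1 by 0.38 ± 0.15 and the adhesion molecule NRCAM by 0.20 ± 0.08. Without the probe sets that share sequence PTPRF was at 0.02.

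The known matrix substrates of ADAMTS enzymes numbered 14, and 0 of them had an unadjusted p under 0.05 in limma. For all genes the share was 9.4%, so a count of 0 in so short a list says little. VCAN, the proteoglycan versican, read 10.56, 10.58 and 10.68 on aligned 1, 2 and 3 and 10.60, 10.53 and 10.21 on random 1, 2 and 3, so the groups overlapped. COL1A2, a substrate of the procollagen proteinases, differed by -0.56 ± 0.39 (SE), with 11.65 on aligned 1 and 9.98 on aligned 3. Of 9 microfibril proteins LTBP2, which binds the network that ADAMTS-like proteins join, differed by 0.50 ± 0.15 (SE) and EFEMP2, or fibulin-4, by -0.24 ± 0.09. Of 6 genes for LGI ligands and their scaffolds, which meet ADAM11, ADAM22 and ADAM23, 0 had an unadjusted p under 0.05 in limma, beside the same 9.4%. The median difference of these pathway lists ran from -0.12 for the microfibril proteins to 0.11 for the EGF family ligands, beside 0.03 for all genes.

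**Figure D5:**
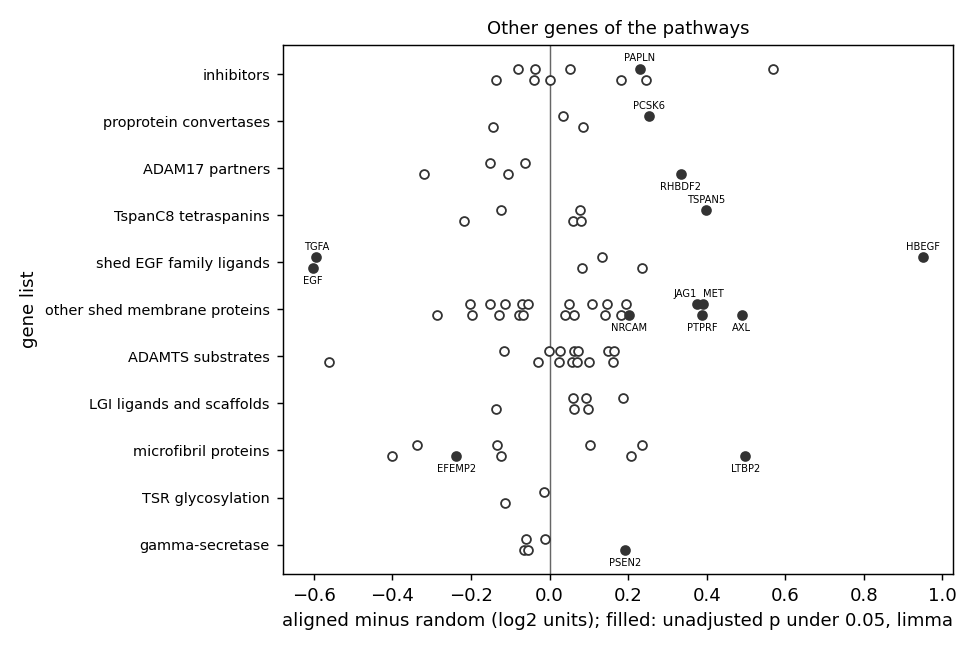
Log2 difference, aligned minus random, of the measured genes of each pathway list, 1 point per gene, filled where the unadjusted p in limma was under 0.05. HBEGF at 0.95 lies farthest to the right, and EGF at -0.60 and TGFA at -0.59 farthest to the left.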

How the data were processed

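Total RNA of 6 U251 cultures was measured on 6 arrays, and groups and replicate numbers came from the sample titles. The deposited log2 values were made by the authors with RMA, per the submitters' processing notes, which corrects background, normalizes arrays to a common distribution and summarises probes. Its version was not given in the sources used here.

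After removal of 62 control probe sets, genes were named from the platform annotation through probe sets with 1 symbol, of which 41037 of 41091 matched RefSeq by gene identifier. A probe set naming an ADAM gene beside a second gene was not used. Aligned minus random was tested in R 4.3.3 by limma 3.58.1 (lmFit, then eBayes) over all 19775 genes, with no covariate, two-sided, and Benjamini-Hochberg adjustment at 0.05; all probe sets were fitted likewise. The code was tested on simulated data. Figures were drawn with matplotlib 3.10.9. By rule, array values are given for members above the median on all 6 arrays, and for those above it on at least 3 with an unadjusted p under 0.05 or groups that do not overlap; from each list, up to 4 genes with an unadjusted p under 0.05 are named, smallest first. Outside this rule, ADAM30, ADAMTS5, ADAMTS14, ADAMTS17 and ADAMTS16-DT are given by array, and TIMP1, TIMP2, TIMP3, TIMP4, FURIN, VCAN, COL1A2, POFUT2 and B3GLCT are named; these were chosen after their values were seen. Members and lists were chosen with earlier results of these data known. Alternatives were 2 filters, centring, repeated quantile normalization, another prior, other probe set choices, a replicate block and each array left out.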

Additional observations from a re-analysis of the deposited data

How the results depend on the processing

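In limma 0 genes passed the adjusted threshold in any of the 14 alternatives, and the number of arrays limits what could be resolved. With probe sets kept only above the array median on at least 3 arrays, 23 of the 50 genes were tested. Of the 23, 5 had an unadjusted p under 0.05 in limma (21.7%, all genes 10.5%). Of the same 23, 3 lay above (13%, all genes 8.71%) and 2 below (8.7%, all genes 9.33%) the random arrays throughout. The median difference of the 23 was -0.0095, beside 0.0096 for all genes. At the 75th percentile 7 of the 50 were tested, and 1 had an unadjusted p under 0.05 in limma, beside 851 of all genes (10.9%). Of the 7, 0 lay above the random arrays throughout (all genes 8.75%) and 1 below them (all genes 10.3%). The median difference of the 7 was -0.0892, beside -0.0008 for all genes. Averaging a gene's probe sets gave 5, or 10% against 9.17% of all genes. With each array left out in turn, members at an unadjusted p under 0.05 numbered 3 to 11 and all such genes 1043 to 3021, while 7 to 13 members (14% to 26%) lay above and 4 to 10 (8% to 20%) below the random arrays throughout, against 12.2% to 19.7% and 9.65% to 14.1% of all genes. ADAMTS17 turned to -0.014 when probe sets that share sequence by suffix were left out. With the replicate number as a block (replicate block), 9 of the 50 genes and 2262 of all genes had an unadjusted p under 0.05 and 0 passed. Deviations of equally numbered arrays correlated across genes by 0.305, 0.175 and 0.0777 for numbers 1, 2 and 3. Those of unequally numbered arrays correlated by -0.311 to 0.157. Each aligned array correlated best with the random array of its own number, while random 3 correlated best with aligned 2, at 0.157. The sample titles do not say what the numbers mean, so they were not taken as pairs. Whether equal numbers mark a pair was not settled by these values.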
